A study of Oreochromis niloticus with 8 samples.

Results

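Potassium channels let potassium ions leave or enter a cell along their gradient, and in neurons they set the resting membrane potential, shape the action potential and limit repeated firing. The voltage-gated channels open on depolarisation, the inward rectifiers (kcnj genes) pass current mainly near the resting potential, the tandem-pore channels (kcnk genes) carry the background leak, and the calcium-activated channels follow electrical activity. Auxiliary subunits (kcnab, kcne, kcnip and kcnmb genes) bind the pore proteins and alter their gating or their delivery to the membrane.

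The genes described here are those of the Nile tilapia (Oreochromis niloticus) midbrain whose identifier in the deposited lists begins with kcn, a subfamily letter code and a number, and whose mean reached 1 TPM in cold or in control. TPM (a transcript abundance unit) is a level scaled by gene length and by the library total, so levels of different genes can be set side by side. Of 29533 listed genes, 37 had such an identifier and 36 of these, in 15 subfamilies, reached the level. The genes just above it were kcns3 (1.0 TPM in cold), kcnk18 (1.02 TPM in control) and kcnv1 (1.50 TPM in control), and kcnh4 (0.915 TPM in control) lay below it and was not tested. Members such as kcnk18 and kcnk5 passed through their control mean alone. Another 56 genes are listed by a LOC identifier and carry a kcn symbol in the RefSeq gene table. They are described separately.

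Polyadenylated midbrain RNA was sequenced from 4 libraries of cold-exposed fish (cold) and 4 libraries of fish kept at normothermy (control). No strain, age, sex, temperature or length of exposure is given in the sources used here. The labels do not say whether a library is 1 fish or a pool, so the p-values speak only of how much these libraries varied, which may be technical. In bulk tissue, fewer cells of a type and less RNA per cell cannot be told apart.

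Each list sums to 1000000 TPM, so absolute depth is unknown; 17842 to 18506 genes reached 1 TPM per library. No library duplicated another, as values of log2(TPM + 1) correlated at 0.968 to 0.982 within groups and 0.943 to 0.963 between groups. The tissue label was checked against the midbrain and tectum markers. Of these th averaged 9.90 TPM in cold and 14.5 TPM in control, slc6a3 8.70 and 8.41 TPM, and en2a 6.66 and 8.68 TPM. The marker pitx3 stayed under 1 TPM in both groups (0.900 TPM in cold and 0.650 TPM in control). Of 6 tested markers, 2 were lower in cold, th and pax7 (1.29 and 2.57 TPM), beside 23.6% of all genes tested. The whole list summed to 41.1 to 50.0 TPM in cold and 49.7 to 65.8 TPM in control. Neuronal markers summed to 6345 to 7096 TPM in cold and 6649 to 7209 TPM in control. Of these 12 markers 2 were lower in cold (elavl3 and elavl4), beside the same 23.6% of all genes. The library cold 2 stood apart. It held 14.1 TPM of the pallial transcription factor gene tbr1, against 0.301 to 0.908 TPM in the other cold libraries and 0.571 to 2.28 TPM in control. It was also high in the forebrain genes eomesa and emx3. The rest of the list of 10 forebrain genes was mixed in cold 2. Of these bcl11b (17.0 TPM) lay above control (11.2 to 15.3 TPM) and eomes (7.66 TPM) within it (4.28 to 9.22 TPM). Both neurod6b (14.4 TPM) and emx2 (1.64 TPM) lay below every control library (19.5 to 24.7 and 2.80 to 3.60 TPM). The forebrain genes were looked up after the values of cold 2 had been seen.

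Cold exposure was accompanied by lower levels of kcnc1, kcnc2 and kcnc4, the ATP-sensitive channel gene kcnj11, the leak channel gene kcnk2, the voltage-gated genes kcng1 and kcnh5 and the auxiliary gene kcnip2, and by higher levels of kcnj2, kcnj15 and kcnk6. By limma on log2(TPM + 1), with p adjusted by the Benjamini-Hochberg method over all 18863 genes tested, 3 members rose and 9 fell at an adjusted p under 0.05, and 24 did not pass. The share of members called, 33.3%, lay near the 36.7% of all genes tested. Of all genes 13.0% were called higher and 23.6% lower, against 8.33% and 25.0% of members. Groups did not overlap for 11 members, against 36.9% of all genes tested. The median log2 change, cold minus control, was -0.18 over the members and -0.09 over all genes. After rescaling by the median of ratios, the members' counts were 4 higher and 7 lower of 35 tested, so 63.6% of called members were lower in place of 75.0%. With that scaling 35.4% of all genes were called, 18.6% higher and 16.8% lower. Over all genes the lower share of calls moved to 47.4% from 64.5%, and the medians became -0.09 for the members and 0.00052 for all genes.

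**Figure D1:**
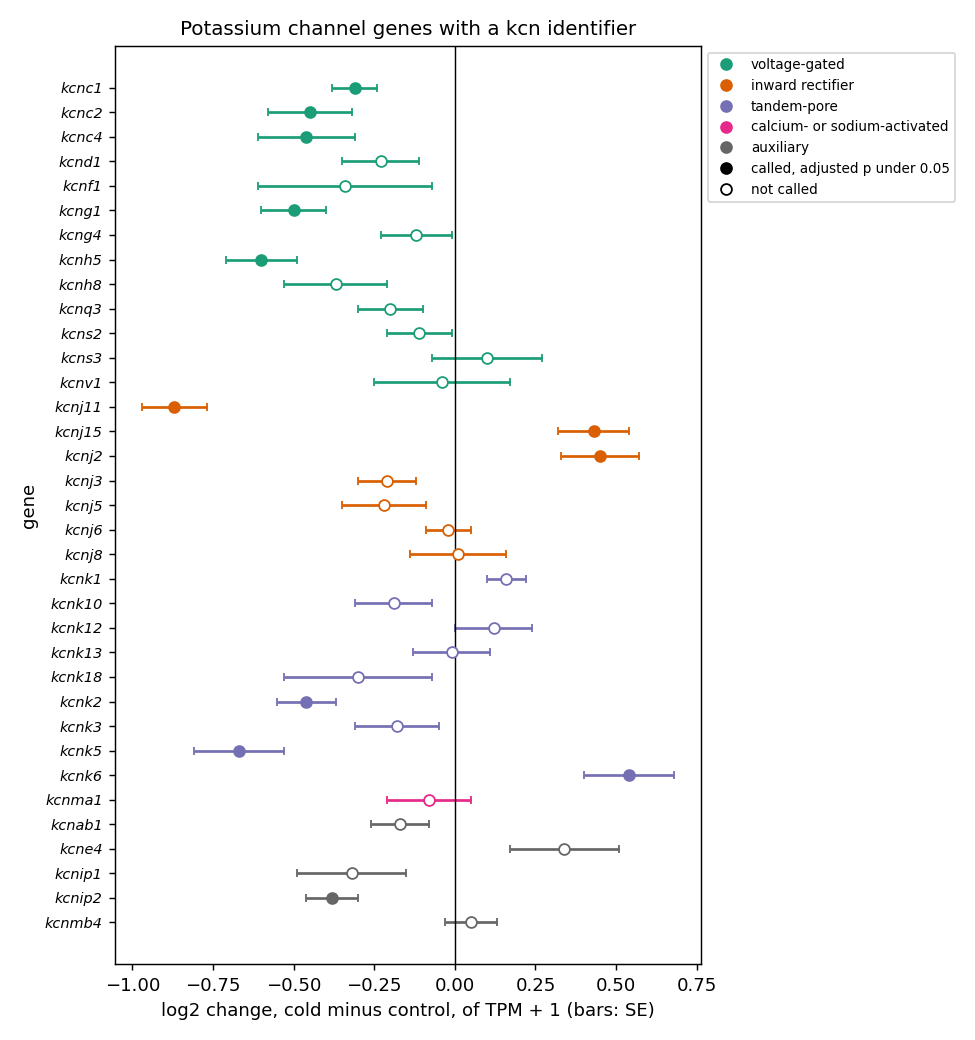
Each point is the log2 change (cold minus control, of TPM + 1) of 1 of the 35 members reported by name, with its standard error, grouped and coloured by channel class; filled points passed limma at an adjusted p under 0.05. Changes ran from -0.87 for kcnj11 to 0.54 for kcnk6, and 26 of 35 lay below 0.

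The order of the members by level was much the same in both groups (Spearman's rho of the group means 0.979 across 36 genes, as a description, since genes are not independent replicates). Their summed level was 886 ± 57.9 TPM in cold and 963 ± 46.4 TPM in control (SD, n = 4 each). The cold libraries 1 to 4 summed to 949, 846, 921 and 829 TPM, and the control libraries to 995, 969, 896 and 993 TPM, so the groups overlapped. The 3 most abundant members were kcnip1, kcnk1 and kcne4, with means over the 8 libraries of 118, 113 and 103 TPM.

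The members kcnc1, kcnc2 and kcnc4 fell, while the LOC-listed kcnc3b of the same subfamily did not pass. These genes encode the fast, high-threshold channels that let neurons fire at high rates. The most abundant, kcnc1, measured 61.9, 69.4, 72.6 and 62.3 TPM in cold, against 86.5, 85.3, 78.4 and 79.7 TPM in control. Every cold library lay below every control library, and the log2 change was -0.31 ± 0.07 (SE; limma adjusted p = 0.00726). For kcnc2 the levels were 33.6, 30.3, 35.8 and 25.7 TPM in cold and 51.9, 43.9, 35.1 and 42.3 TPM in control. Here control 3 lay within the cold range, and the log2 change was -0.45 ± 0.13 (limma adjusted p = 0.0258). The third gene, kcnc4, had 14.0, 11.5, 11.5 and 8.01 TPM in cold and 15.6, 15.4, 13.7 and 17.8 TPM in control. Its lowest control library fell just below its highest cold library (log2 change -0.46 ± 0.15, limma adjusted p = 0.0371). The calls of kcnc2 and kcnc4 were lost after median-of-ratios scaling (limma adjusted p = 0.0675 and 0.0921). The call of kcnc2 was also lost without control 1, control 2, cold 2 or cold 4 (limma adjusted p from 0.0543 to 0.0611), and that of kcnc4 without control 1, control 2, control 4, cold 2, cold 3 or cold 4 (0.0504 to 0.0899). The LOC-listed kcnc3b (LOC100703675) measured 42.3, 42.2, 58.0 and 66.0 TPM in cold and 73.6, 67.2, 70.6 and 60.5 TPM in control, so cold 4 lay above control 4 (log2 change -0.40 ± 0.15, limma adjusted p = 0.0586). Without cold 4 it passed (limma adjusted p = 0.0138).

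**Figure D2:**
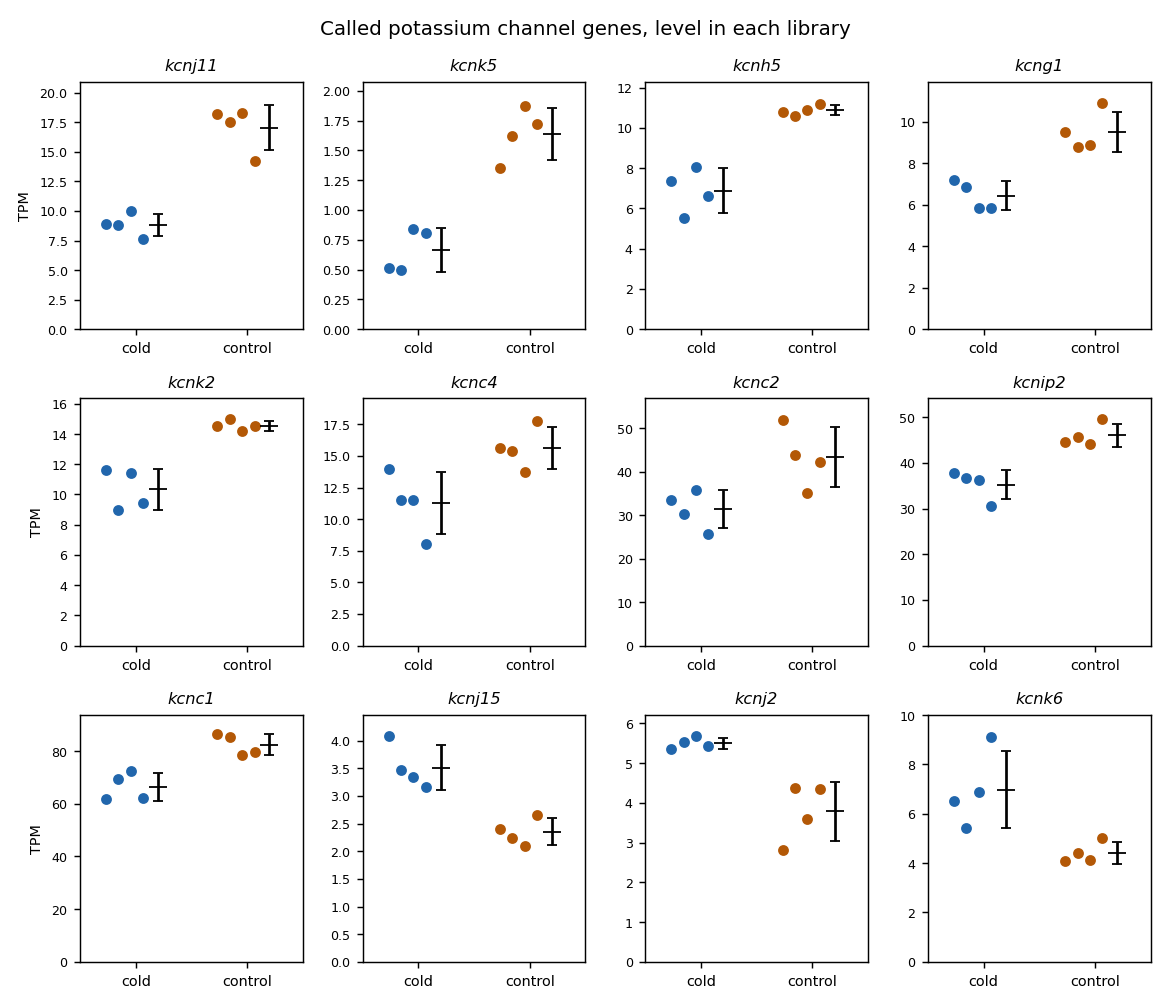
Level in TPM of the 12 called members in each of the 4 cold libraries (left) and 4 control libraries (right); the bar beside the points is the mean with SD. The 9 genes that fell come first and the 3 that rose last. The groups overlap only for kcnc2 and kcnc4 (10 of the 12 genes have no overlap). The genes are shown because they were called in these same libraries, which favours separate groups. Over all 36 members the groups did not overlap for 11, beside 36.9% of all genes tested.

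Among the kcnh and kcng members, 1 of 2 fell in each subfamily, beside 23.6% of all genes called lower. Of the 6 tested LOC-listed kcnh genes 1 rose and 1 fell, and the 2 LOC-listed kcng genes did not pass. The gene kcnh5, of the ether-a-go-go group of voltage-gated channels, measured 7.38, 5.50, 8.06 and 6.60 TPM in cold and 10.8, 10.6, 10.9 and 11.2 TPM in control. The control libraries lay close together and above all cold libraries (log2 change -0.60 ± 0.11, limma adjusted p = 0.00267). Its relative kcnh8 averaged 3.67 ± 0.881 TPM in cold and 4.95 ± 0.567 TPM in control (SD, n = 4 each). The groups did not overlap for kcnh8, but the difference did not pass (log2 change -0.37, limma adjusted p = 0.0982).

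The kcng, kcnf, kcns and kcnv genes encode modifier subunits, which form no working channel alone and change the currents of kcnb channels they join. Levels of kcng1 were 7.18, 6.88, 5.87 and 5.87 TPM in cold and 9.51, 8.80, 8.88 and 10.9 TPM in control. The groups were separate and kcng1 fell (log2 change -0.50 ± 0.10, limma adjusted p = 0.00492). The other modifier genes did not pass. For kcng4 the means were 6.94 ± 1.05 TPM in cold and 7.59 ± 0.537 TPM in control (limma adjusted p = 0.432). The gene kcns2 measured 22.1, 18.1, 19.1 and 15.7 TPM in cold and 21.4, 20.9, 18.9 and 19.5 TPM in control (limma adjusted p = 0.427). The weakly expressed kcns3 averaged 1.0 TPM in cold and 0.876 TPM in control, and kcnv1 had 0.655, 1.92, 1.57 and 1.68 TPM in cold against 1.54, 1.17, 1.17 and 2.11 TPM in control, with wide overlap (limma adjusted p = 0.691 and 0.902).

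The call of the modifier gene kcnf1 turned on a single library. Its levels were 11.4, 26.8, 11.5 and 9.39 TPM in cold and 16.4, 18.0, 16.7 and 18.6 TPM in control. Cold 2 had the highest of all 8 values, while the other 3 cold libraries lay below every control library. With all libraries the log2 change was -0.34 ± 0.27 (limma adjusted p = 0.354), and without cold 2 it was -0.65 (limma adjusted p = 0.00159). Cold 2 is the library with the high levels of tbr1, eomesa and emx3 given above. The part of forebrain RNA in the level of kcnf1 was not tested.

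**Figure D3:**
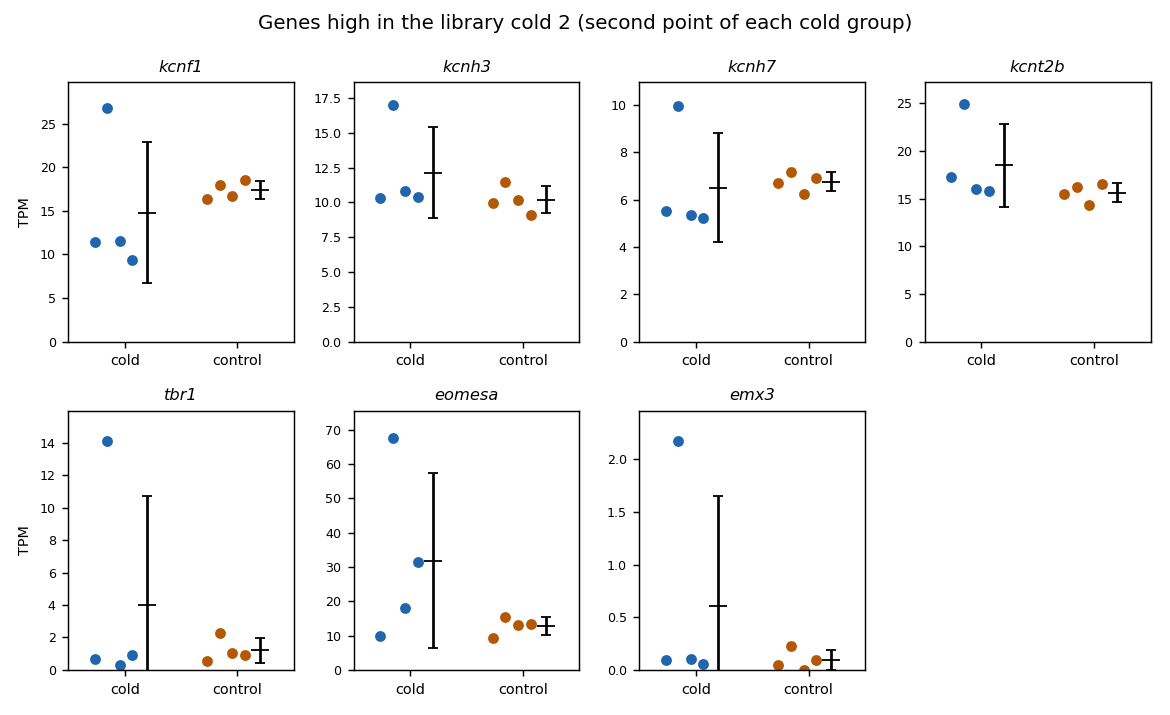
Level in TPM of the member kcnf1, of 3 kcn genes listed under LOC identifiers (kcnh3, kcnh7, kcnt2b) and of the forebrain genes tbr1, eomesa and emx3, with 4 cold libraries on the left, 4 control libraries on the right and the mean with SD beside each (lower bars below 0 are cut off). The genes drawn were chosen because they are high in cold 2, the second cold point. By this choice cold 2 is the highest of all 8 in each panel, at 26.8 TPM for kcnf1 and 14.1 TPM for tbr1. The rest of the forebrain list, which was mixed in cold 2, is not drawn.

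No difference was detected in the other voltage-gated members. The gene kcnq3, a subunit of the muscarine-sensitive M current that restrains repeated firing, had 25.9, 20.7, 23.7 and 20.8 TPM in cold and 29.0, 27.3, 23.1 and 26.0 TPM in control. Control 3 lay within the cold range (log2 change -0.20 ± 0.10, limma adjusted p = 0.125). The gene kcnd1, a pore subunit of the transient A-type current, measured 4.95, 4.04, 5.40 and 4.28 TPM in cold and 5.68, 6.19, 4.52 and 6.19 TPM in control, and again control 3 overlapped the cold libraries (log2 change -0.23 ± 0.12, limma adjusted p = 0.182).

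Of the 7 inward rectifier genes, 2 rose and 1 fell, which is 42.9% called beside 36.7% of all genes. On the log2(TPM + 1) scale the largest fall of any member was that of kcnj11. This gene encodes a pore subunit of ATP-sensitive (KATP) channels, the channels that open when cellular ATP runs low. It measured 8.92, 8.81, 9.96 and 7.66 TPM in cold and 18.2, 17.5, 18.3 and 14.2 TPM in control. By the ratio of means the weakly expressed kcnk5, given below, fell further (0.405 times its control mean). For kcnj11 the cold mean was 0.519 times the control mean, the groups were far apart, and the log2 change was -0.87 ± 0.10 (limma adjusted p = 0.000376). This call was made under each of the 15 alternatives tried, with limma adjusted p between 0.000405 and 0.00195 when 1 library was left out.

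The other KATP pore gene among the members, kcnj8, is known in mammals from vascular smooth muscle and pericytes. Its levels were 18.0, 10.3, 13.3 and 13.2 TPM in cold and 11.8, 15.7, 13.2 and 12.8 TPM in control, with complete overlap (log2 change 0.01 ± 0.15, limma adjusted p = 0.953). The ratio of kcnj11 to kcnj8 was 0.495 to 0.858 in the cold libraries and 1.11 to 1.54 in the control libraries. The ratio was chosen after both genes had been seen and is given as a description. It leaves out the more abundant LOC-listed pore gene kcnj11l, described below, which did not fall. That gene averaged 22.9 TPM in cold and 19.7 TPM in control (log2 change 0.22, limma adjusted p = 0.0874). Both sulfonylurea receptor genes, whose products surround the KATP pore, fell as well. The gene abcc8 had 17.3, 14.7, 19.8 and 16.3 TPM in cold and 25.1, 22.5, 25.2 and 24.6 TPM in control (log2 change -0.50 ± 0.09, limma adjusted p = 0.00305). For abcc9, the partner found in smooth muscle and pericytes in mammals, the levels were 14.0, 14.6, 20.0 and 21.7 TPM in cold and 28.1, 26.1, 27.1 and 22.0 TPM in control (-0.55 ± 0.15, limma adjusted p = 0.0172). In neither receptor gene did the groups overlap, although cold 4 and control 4 nearly met for abcc9. Of 7 pericyte and smooth muscle marker genes, 4 were lower in cold (acta2, myh11, notch3 and pdgfrb), beside 23.6% of all genes called lower. The markers rgs5a (49.7 TPM in cold and 39.8 TPM in control), rgs5b and tagln did not pass. The list summed to 163 to 188 TPM in cold and 174 to 232 TPM in control. The part of pericytes and smooth muscle in the levels of the KATP genes was not tested.

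**Figure D4:**
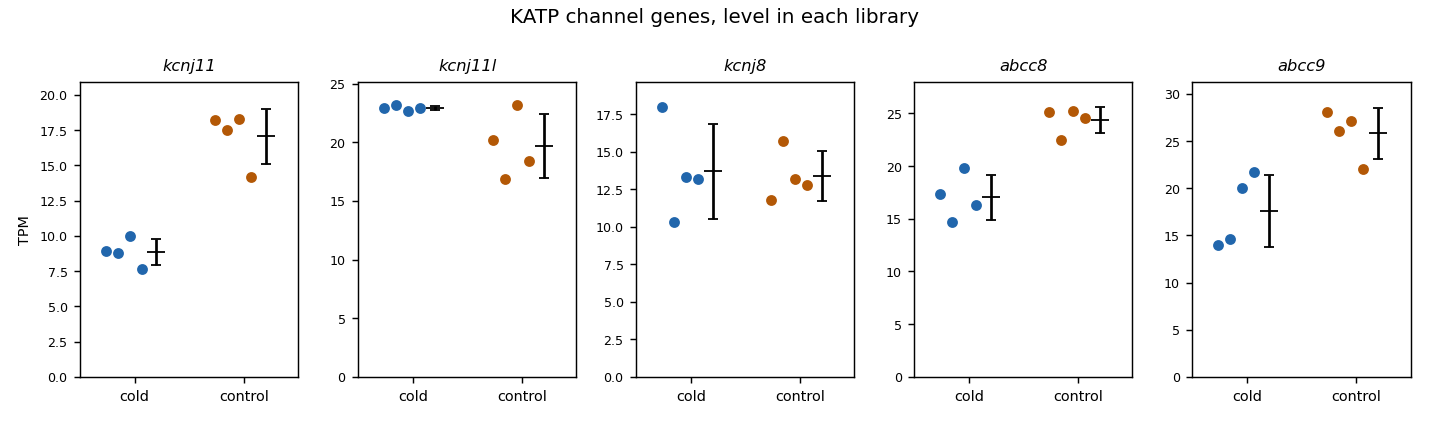
Level in TPM of the KATP pore genes kcnj11, kcnj11l and kcnj8 and of the receptor genes abcc8 and abcc9 in 4 cold libraries (left) and 4 control libraries (right), with the mean and SD beside each. The cold libraries lie at 7.66 to 9.96 TPM for kcnj11, below the control libraries at 14.2 to 18.3 TPM, while kcnj8 overlaps fully.

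The inward rectifier gene kcnj2, whose product is a strong rectifier that holds the resting potential, rose. Its levels were 5.36, 5.52, 5.67 and 5.42 TPM in cold and 2.81, 4.38, 3.60 and 4.35 TPM in control. The cold libraries were nearly equal and all above control (log2 change 0.45 ± 0.12, limma adjusted p = 0.0200). Without control 3 or cold 3 the call was narrowly lost (limma adjusted p = 0.0502 and 0.0503). The gene kcnj15, studied in mammals mostly in kidney and other epithelia, also rose, with 4.08, 3.47, 3.34 and 3.16 TPM in cold and 2.41, 2.24, 2.10 and 2.66 TPM in control. The groups were separate (log2 change 0.43 ± 0.11, limma adjusted p = 0.0164).

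Through the G protein-gated inward rectifiers many transmitter receptors slow neuronal firing. Of their genes, the members kcnj3, kcnj5 and kcnj6 and the LOC-listed kcnj9 did not pass with all libraries. The LOC-listed inward rectifier gene kcnj19a, given below, fell (log2 change -0.89 ± 0.16, limma adjusted p = 0.00267). Of the 3 members kcnj6 was the most abundant. It measured 71.5, 62.7, 65.6 and 59.9 TPM in cold and 71.2, 60.4, 63.1 and 68.9 TPM in control, so the groups covered much the same range (log2 change -0.02 ± 0.07, limma adjusted p = 0.848). Means of kcnj3 were 52.3 ± 5.75 TPM in cold and 60.4 ± 4.28 TPM in control, and those of kcnj5 were 15.5 ± 3.06 and 17.9 ± 1.46 TPM (limma adjusted p = 0.0928 and 0.226). Without cold 1 the change of kcnj3 passed (limma adjusted p = 0.0437). The LOC-listed kcnj9 (LOC100704256) averaged 55.5 ± 6.35 TPM in cold and 65.9 ± 4.01 TPM in control (SD, n = 4 each). Its groups did not overlap, though cold 1 and control 3 nearly met (log2 change -0.25 ± 0.09, limma adjusted p = 0.0542). It passed without cold 1 and when only genes of at least 5 TPM were tested (limma adjusted p = 0.0383 and 0.0492).

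Of 9 tandem-pore leak channel genes, 1 rose and 2 fell, which is 33.3% called beside 36.7% of all genes. The gene kcnk2 encodes a channel opened by stretch, warmth and polyunsaturated lipids in mammals. It measured 11.6, 8.96, 11.4 and 9.43 TPM in cold and 14.5, 15.0, 14.2 and 14.5 TPM in control. All cold libraries were below the narrow control range (log2 change -0.46 ± 0.09, limma adjusted p = 0.00443). Its close relative kcnk10 had means of 17.9 ± 3.19 TPM in cold and 20.3 ± 0.673 TPM in control and did not pass (log2 change -0.19, limma adjusted p = 0.246).

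The acid-sensitive channel gene kcnk5 was weakly expressed and became a member through its control mean alone, a way of entry that favours genes lower in cold. It measured 0.515, 0.497, 0.838 and 0.803 TPM in cold and 1.35, 1.62, 1.87 and 1.72 TPM in control. The groups were separate, and the log2 change of -0.67 ± 0.14 understates a change at such levels because of the added 1 TPM (limma adjusted p = 0.00670). With no filter on low values the call was also made (limma adjusted p = 0.00398). The leak channel gene kcnk3 averaged 1.93 ± 0.200 TPM in cold and 2.34 ± 0.411 TPM in control (limma adjusted p = 0.308).

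The largest rise of any member was that of kcnk6, of the weak inwardly rectifying leak channels. Its levels were 6.50, 5.44, 6.87 and 9.11 TPM in cold and 4.09, 4.42, 4.11 and 5.01 TPM in control. Each cold library exceeded each control library, with cold 4 the highest, and the log2 change was 0.54 ± 0.14 (limma adjusted p = 0.0153). The most abundant leak channel gene, kcnk1, belongs to the same group and had 119.6, 123, 120.3 and 114 TPM in cold and 119, 106, 99.2 and 104 TPM in control. Control 1 lay within the cold range, and the log2 change of 0.16 ± 0.06 did not pass (limma adjusted p = 0.0695). It passed after median-of-ratios scaling and without control 1 (limma adjusted p = 0.0153 and 0.0193).

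The other leak channel genes overlapped between groups. The gene kcnk13, known in mammals from microglia, averaged 4.18 ± 0.394 TPM in cold and 4.22 ± 0.730 TPM in control (limma adjusted p = 0.979). Over the same libraries 3 of 4 genes matched as microglial markers fell, beside 23.6% of all genes called lower. The 3 markers were p2ry12 (2.25 TPM in cold and 25.2 TPM in control), c1qb (19.0 and 32.7 TPM) and csf1r (9.53 and 13.3 TPM). The gene aif1l, matched to aif1 by its suffix, rose. The list summed to 148 to 169.7 TPM in cold and 165 to 197 TPM in control. Of these sums aif1l held 118 to 142 TPM in cold and 102 to 112 TPM in control, so the sums mostly reflect aif1l and not the 3 markers that fell. Means of kcnk12 were 5.34 and 4.80 TPM and those of kcnk18 were 0.602 and 1.02 TPM in cold and control (limma adjusted p = 0.492 and 0.346).

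The large-conductance calcium-activated channel showed no detected difference in pore or auxiliary subunit. The pore gene kcnma1 measured 57.5, 61.5, 75.4 and 89.1 TPM in cold and 80.3, 74.6, 77.7 and 64.8 TPM in control. The cold libraries spread over a wider range that included all control libraries (log2 change -0.08 ± 0.13, limma adjusted p = 0.659). Its brain-enriched beta subunit gene kcnmb4 had 11.4, 12.2, 10.4 and 10.4 TPM in cold and 10.8, 10.6, 10.1 and 11.1 TPM in control (0.05 ± 0.08, limma adjusted p = 0.645).

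Among the remaining auxiliary genes, kcnip2 fell. The kcnip genes encode calcium-binding partners that bring kcnd channels to the membrane. Levels of kcnip2 were 37.7, 36.7, 36.2 and 30.5 TPM in cold and 44.6, 45.8, 44.1 and 49.7 TPM in control. The groups were separate (log2 change -0.38 ± 0.08, limma adjusted p = 0.00527). The more abundant kcnip1 had 132, 96.1, 108 and 83.0 TPM in cold and 128, 157, 98.2 and 142 TPM in control, with overlap and a wide spread in both groups (-0.32 ± 0.17, limma adjusted p = 0.168).

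The gene kcne4, whose single-pass subunit inhibits several voltage-gated channels in mammals, measured 141, 88.0, 123 and 110.0 TPM in cold and 91.7, 68.9, 92.5 and 111 TPM in control. The ranges overlapped through cold 2 and control 4, and the log2 change of 0.34 ± 0.17 did not pass (limma adjusted p = 0.146). It passed without cold 2 (limma adjusted p = 0.0497), and without cold 2 and control 4 together (0.0220). The gene kcnab1, for a beta subunit of kcna channels, had 17.7, 16.4, 17.3 and 15.8 TPM in cold and 19.1, 19.1, 16.5 and 21.6 TPM in control, with control 3 inside the cold range (limma adjusted p = 0.153).

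The kcn genes listed under LOC identifiers, not counted as members, included the kcna, kcnb, kcnn and kcnt genes, subfamilies that no member represents. Of these 56 genes 43 reached the level for testing, and 2 rose and 11 fell (30.2% called, beside 36.7% of all genes). Their median log2 change was -0.15. Without cold 2 the counts were 4 rises and 11 falls, without control 1 they were 2 and 7, and after median-of-ratios scaling 4 and 7. On the log2(TPM + 1) scale the largest fall was that of kcnk2a (LOC100699231), a second gene named after kcnk2. It measured 3.03, 2.28, 2.70 and 2.78 TPM in cold and 8.92, 6.58, 6.07 and 12.2 TPM in control. The groups were separate (log2 change -1.31 ± 0.19, limma adjusted p = 0.00102). Reads shared between kcnk2 and kcnk2a, or between other related genes, could have been divided in the counting, so the level of a single such gene is uncertain.

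Pore genes of the kcna subfamily, which damp excitability along axons, moved in both directions: kcna1a rose (48.1 ± 10.8 TPM in cold and 32.3 ± 2.34 TPM in control), kcna3a fell (1.48 ± 0.282 and 3.69 ± 0.657 TPM) and kcna7 fell (0.368 ± 0.141 and 1.21 ± 0.480 TPM), with limma adjusted p of 0.0186, 0.00155 and 0.0281. The gene kcna7 was tested through its control mean alone, which favours a fall. The levels of kcna1b (30.6 ± 3.57 TPM in cold and 31.4 ± 2.27 TPM in control) and kcna2b (12.5 ± 1.58 and 13.0 ± 1.77 TPM) did not pass (limma adjusted p = 0.780 and 0.772). The other rise was that of kcnh6a (6.68 ± 0.615 TPM in cold and 4.90 ± 0.593 TPM in control). Further falls were those of the sodium-activated channel gene kcnt1b (44.0 ± 3.69 and 59.5 ± 1.89 TPM), the inward rectifier gene kcnj19a (16.3 ± 4.05 and 30.3 ± 1.59 TPM) and kcnh1a (5.29 ± 1.24 and 8.95 ± 1.16 TPM). The remaining falls were those of kcnj12b, kcnk3b and kcnn1b and of 2 genes of the A-type complex given below. The calls of kcnj12b, kcnk3b and kcnn1b (limma adjusted p = 0.0360, 0.0323 and 0.0454) were each lost after median-of-ratios scaling and with no filter on low values. That of kcnj12b was also lost without any single library but cold 1 (0.0501 to 0.0919). The call of kcnk3b was lost without any single library but control 4 or cold 3 (0.0575 to 0.0825). For kcnn1b it was lost without any single library but control 3 or control 4 (0.0549 to 0.108). The call of kcna7 was lost without control 1, control 3, control 4, cold 1 or cold 2 (0.0509 to 0.0767). The rise of kcna1a was narrowly lost without cold 3, and that of kcnh6a without control 2 (limma adjusted p = 0.0509 and 0.0524). The gene kcnj11l (LOC100711429), named after kcnj11, averaged 22.9 TPM in cold and 19.7 TPM in control and did not pass (log2 change 0.22, limma adjusted p = 0.0874). It passed as higher in cold after median-of-ratios scaling and without control 3 (limma adjusted p = 0.0242 and 0.0203). The glial potassium-buffering channel gene kcnj10a averaged 40.7 TPM in cold and 55.1 TPM in control (limma adjusted p = 0.0655), and its fall passed without cold 4 (0.0250).

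**Figure D5:**
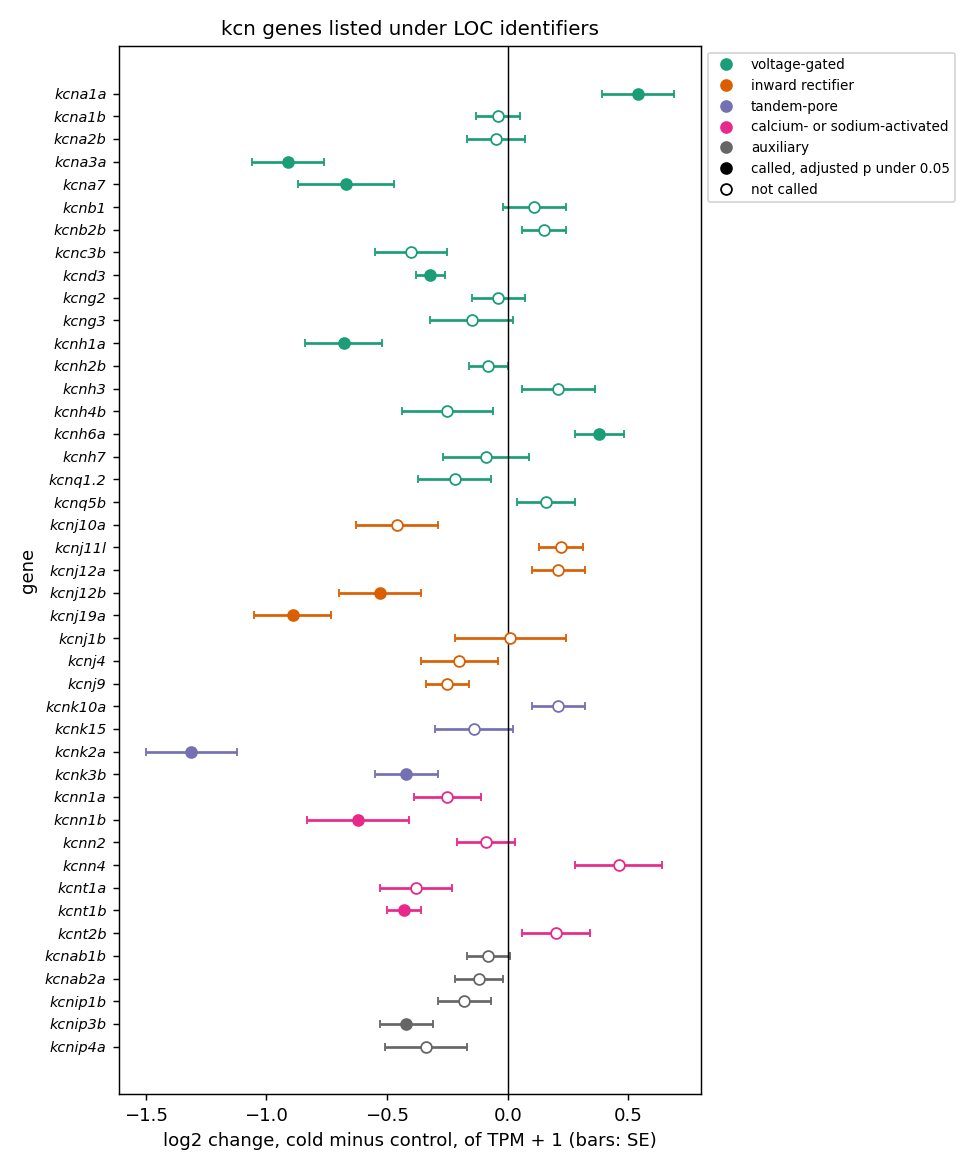
Each point is the log2 change (cold minus control, of TPM + 1) with its standard error of 1 of the 43 tested kcn genes listed under LOC identifiers, grouped and coloured by channel class; filled points passed limma at an adjusted p under 0.05. Changes ran from -1.31 for kcnk2a to 0.54 for kcna1a.

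Of 9 genes of the A-type channel complex (the kcnd and kcnip genes with dpp6 and dpp10), 4 fell and 0 rose, which is 44.4% called beside 36.7% of all genes. This set joins members, LOC-listed genes and partner genes. It was not among the planned comparisons and is given as a description. Besides kcnip2, the LOC-listed pore gene kcnd3 fell (30.3 ± 1.65 TPM in cold and 38.0 ± 2.27 TPM in control, limma adjusted p = 0.00519), as did kcnip3b (29.6 ± 2.89 and 40.2 ± 5.31 TPM, limma adjusted p = 0.0129). The call of kcnip3b was narrowly lost after median-of-ratios scaling (limma adjusted p = 0.0507). The gene dpp6, for a membrane partner that speeds A-type currents, measured 72.5, 57.3, 76.9 and 76.7 TPM in cold and 119.6, 108, 108 and 100 TPM in control, with a clear gap between groups (log2 change -0.62 ± 0.10, limma adjusted p = 0.00160). Its relative dpp10 did not pass (log2 change -0.21, limma adjusted p = 0.135), and neither did kcnd1, kcnip1, kcnip1b and kcnip4a. The change of kcnip4a passed without cold 4 (limma adjusted p = 0.0359).

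A wider list of genes that act with potassium channels or on the potassium gradient held 52 genes, 50 of them tested. In it 1 rose and 17 fell (36.0% called, beside 36.7% of all genes), with a median log2 change of -0.15, beside -0.09 over all genes. With median-of-ratios scaling there were 2 rises and 13 falls. Without cold 2, 3 rose. The 6 calls of lowest p were falls. Besides dpp6 they were those of hcn2, for a channel opened by hyperpolarisation (3.80 ± 0.416 TPM in cold and 6.63 ± 0.328 TPM in control), slc12a5a, for the neuronal chloride-extruding potassium cotransporter (127 ± 10.3 and 176 ± 9.93 TPM), ank2a, for a membrane scaffold (33.1 ± 2.69 and 43.0 ± 0.845 TPM), the sodium leak channel gene nalcn (40.4 ± 2.62 and 53.9 ± 2.31 TPM) and vapb, for an anchor of kcnb channels (90.3 ± 3.16 and 111 ± 4.09 TPM). Their limma adjusted p lay between 0.000838 for hcn2 and 0.00266 for ank2a. The rise was that of amigo3 (limma adjusted p = 0.0118). Of 13 genes listed as clustering kcna channels on axons 6 fell and 0 rose. This is 46.2% called, beside 36.7% of all genes called in either direction and 23.6% called lower. Among the 6 was lgi1b (log2 change -0.72 ± 0.16, limma adjusted p = 0.00660). Of these 6 calls those of dlg4a and cntnap2 (limma adjusted p = 0.0281 and 0.0499) were lost after median-of-ratios scaling (0.196 and 0.225), dlg4a also without control 1, control 2, control 4 or cold 3 (0.0525 to 0.0706) and cntnap2 without any single library but control 3 or cold 2 (0.0745 to 0.120). Of 9 tested sodium-potassium pump genes 1 fell, atp1b3b (limma adjusted p = 0.0345), a call lost after median-of-ratios scaling and without control 1, control 2, control 4 or cold 2 (0.0516 to 0.214), and the 4 calmodulin genes did not pass (limma adjusted p from 0.0854 for calm1b to 0.911 for calm3).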

How the data were processed

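Midbrain polyadenylated RNA of 4 cold and 4 control libraries was analysed from 8 lists of TPM values deposited by the authors, covering 29533 genes. The values sum to 1000000 per list, which identifies the unit. Per the submitters' processing notes, HISAT2 was used. No source used here gives the read counter, the build, the annotation, any version or how strand and multiple mapping were handled, and TPM keeps no depth. Groups and replicate numbers came from the sample titles.

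Of 19370 LOC identifiers, 19368 were found in the RefSeq gene table (assembly O_niloticus_UMD_NMBU) and 6153 received a symbol. The build of the files is not named, so no coordinates are given.

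limma 3.58.1 (R 4.3.3, trend on, robust off) was fitted to log2(TPM + 1) over all genes averaging 1 TPM or more in either group, cold against control, without covariates. Tests were two-sided, with Benjamini-Hochberg adjustment and a threshold of 0.05. The step was tested on simulated data. Fold changes on this log2(TPM + 1) scale are too small for genes of low level.

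Members, gene lists and tests were chosen with earlier results of these data known. Of the 36 members, 1 is counted in the totals and its own values are not reported here. Levels in every library are given for up to 3 called members of lowest p and the most abundant member of each subfamily. Partner and marker genes were matched by symbol with copy suffixes. A planned test between a and b copies was not run, since 0 member identifiers form such a pair. The alternatives were another scaling, pseudocount (0.1) and filter (none, or 5 TPM), a robust fit, a replicate block and leaving out libraries.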

Additional observations from a re-analysis of the deposited data

Results flagged for a closer look

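Each gene's 4 values per group were checked for a library far from the other 3 (Dixon's ratio of the gap to the nearest value over the whole range, past its 95% critical value), over the 36 members and the 43 tested kcn genes listed under LOC identifiers. This was met in 10 of 158 groups, and chance gives about 1 in 20. Cold 2 accounted for 5 of the 10. In it kcnf1 stood at 26.8 TPM (9.39 to 11.5 TPM in the other cold libraries), kcnh3 at 17.0 TPM (10.3 to 10.8 TPM), kcnh7 at 9.96 TPM (5.21 to 5.51 TPM), kcnt2b at 24.9 TPM (15.8 to 17.3 TPM) and kcnab1b at 40.0 TPM (30.1 to 31.4 TPM). The only flag in another cold library was the low level of kcnt1b in cold 1, 38.4 TPM against 45.5 to 46.3 TPM in the other 3.

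Among the control libraries, control 3 was high for kcnk12 (5.45 TPM, against 4.52 to 4.66 TPM) and low for kcng3 (7.16 TPM, against 8.78 to 9.05 TPM) and kcnh1a (7.24 TPM, against 9.37 to 9.80 TPM). Control 4 was high for kcnn1b, at 9.11 TPM against 4.21 to 4.71 TPM.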

How the results depend on the processing

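Of the 12 called members, 8 passed under every one of the 15 alternatives in which they were tested: kcnc1, kcng1, kcnh5, kcnip2, kcnj11, kcnk2, kcnk5 and kcnk6. Over 513 values of the 35 members reported by name under alternatives, 467 had the same direction and call, 19 lost the call, 7 gained it and 20 changed sign, the last all for members not called. The replicate numbers shared by the groups do not pair the libraries (correlations of the deviations from group means -0.00834, -0.146, 0.0542 and -0.226). With a replicate block 2 members rose and 8 fell, and kcnj15 (adjusted p = 0.0510) and kcnc4 (0.0796) lost their calls. Leaving out 1 library gave 2 to 4 rises and 7 to 10 falls among members, 2010 to 2361 rises and 3688 to 4124 falls among all genes, and 1 to 3 rises and 12 to 16 falls among partner genes. Partner genes that rose numbered 2 after median-of-ratios scaling, 0 among genes of at least 5 TPM (amigo3 is below that level) and 2 without control 4 and cold 2. The log2 changes that changed sign were, after median-of-ratios scaling, kcnj6 0.08, kcnk13 0.07, kcnma1 0.01 and kcnv1 0.02, and, without control 4 and cold 2, kcnj6 0.02 and kcnk13 0.04. With 1 library left out, the changes of these uncalled members ran from -0.07 to 0.02 for kcnj6, -0.12 to 0.13 for kcnj8, -0.07 to 0.07 for kcnk13, -0.20 to 0.01 for kcnma1 and -0.13 to 0.14 for kcnv1. The cause was not tested. No depth is known, so low levels, such as those of kcnk5, kcnk18 and kcns3, carry an unknown counting error.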

Other observations

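Leaving out cold 2 also changed calls of other kcn genes listed under LOC identifiers. Without cold 2 the falls of kcnt1a, kcnh7, kcng3 and kcnab1b and the rises of kcnk10a and kcnn4 passed limma (adjusted p = 0.00310, 0.0374, 0.0432, 0.0448, 0.0215 and 0.0255). The rise of kcnn4 also passed with all libraries after median-of-ratios scaling (limma adjusted p = 0.0414). With all libraries kcnt1a, a sodium-activated channel gene, averaged 21.5 TPM in cold and 27.7 TPM in control, and kcnn4, for an intermediate-conductance calcium-activated channel known in mammals from blood and epithelial cells, averaged 4.12 TPM in cold and 2.66 TPM in control. The forebrain list as a whole (10 genes) summed to 129 TPM in cold 2, 49.1 TPM in cold 1 and 49.9 TPM in cold 3, against 55.6 to 73.1 TPM in control, and cold 4 lay within the control range. In it eomesa stood at 67.6 TPM in cold 2, against 9.88, 18.0 and 31.6 TPM in the other cold libraries and 9.27 to 15.3 TPM in control, and emx3 at 2.17 TPM, against 0.0515 to 0.102 TPM in the other cold libraries and at most 0.225 TPM in control. The listed genes neurod6b and emx2 were not high in cold 2, as given above. The part of forebrain RNA in the values of the kcn genes was not tested.

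Endothelial marker genes included 3 falls of 9 (kdr, kdrl and tie1), beside 23.6% of all genes called lower. They summed to 157 to 215 TPM in cold and 206 to 276 TPM in control. Oligodendrocyte markers summed to 10548 to 12762 TPM in cold and 9617 to 13391 TPM in control, and those of radial glia and astroglia to 6065 to 8224 TPM in cold and 7324 to 8254 TPM in control, with falls of glula and glulb. Photoreceptor markers summed to 29.1 TPM in cold 2, against 3.74, 5.20 and 4.91 TPM in cold 1, cold 3 and cold 4. In control they spread from 5.20 to 41.6 TPM. Pituitary markers (14.1 to 38.5 TPM in cold and 25.0 to 39.4 TPM in control) and erythrocyte markers (44.5 to 164 TPM in cold and 31.5 to 155 TPM in control) varied widely within both groups.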
